A study of Mus musculus with 2 samples.

Results

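Collagens were examined gene by gene in mouse embryonic stem cells (mESCs) depleted of AIMP3, a scaffold protein that binds aminoacyl-tRNA synthetases. Every array probe whose transcript accession belongs to a gene with a symbol of the form Col, number, a, number was taken, which gave 63 probes for 43 collagen genes among the 37018 genes or unnamed transcripts on the array. The genes were sorted by collagen type into 9 fibrillar genes (types I, II, III, V and XI), 6 basement membrane genes (type IV), 6 beaded filament genes (type VI) and 22 genes of other types. The rule uses gene names and collagen types alone.

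The cells were AIMP3f/f;cre-ERT2 mESCs, derived from blastocysts, in which both conditions carry the floxed AIMP3 alleles and the tamoxifen-inducible Cre. AIMP3-depleted cells received 2 μM tamoxifen for 4 days in medium containing LIF (n = 2), and control cells received ethanol alone. RNA from the control replicates was pooled, labelled with Cy3 and hybridized beside the Cy5-labelled RNA of each AIMP3-depleted replicate, so the control counts as 1 sample. Loss of AIMP3, the presence of tamoxifen and the activation of Cre cannot be told apart in this design, nor can the dye and the condition, because the dyes were not swapped. The labels describe culture on mouse embryonic fibroblast feeder layers, while the study's methods say that drug incubations were done in medium conditioned by such fibroblasts. Neither says whether feeder cells were present in the extracted RNA.

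Collagens are secreted proteins built from 3 alpha chains wound into a triple helix, and each gene encodes 1 chain. Fibrillar collagens assemble into the banded fibres of connective tissue, type IV forms the sheet-like network of basement membranes, and type VI forms beaded microfilaments between these kinds of matrix. Early embryos deposit type IV collagen in their first basement membranes, and parietal endoderm is known for secreting it in large amounts. Inside the cell the chains are hydroxylated, folded and escorted by dedicated enzymes and chaperones, and outside it they are trimmed and cross-linked.

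Values are log2 ratios of AIMP3-depleted over control on the array of each replicate, and a gene was called changed when its mean ratio passed 1.5-fold with an unadjusted p under 0.05 in limma. Adjusted p-values come from the same limma fit by the Benjamini-Hochberg method, taken over 24022 tested genes. Because the control was 1 pool, its own biological spread is not in these tests, and nothing says that the AIMP3-depleted replicates came from separate cultures. Eef1e1, which encodes AIMP3, had log2 ratios of -0.90 and -0.90, and thus fell by 0.90 ± 0.0067 (SD, n = 2, adjusted p = 5.08e-05) in the direction the labels give. Between 59.3% and 60.6% of spots were well above background in either channel, and 0 spots were saturated.

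On both arrays, 32 of the 43 collagen genes had a probe well above background in the control channel, the AIMP3-depleted channel or both, and these were tested. Of these, 15 were called higher in AIMP3-depleted cells and 0 were called lower. Over all tested genes, 6.32% were called changed, 5.52% as higher and 0.791% as lower. Over the 14972 tested genes with a symbol, 6.67% were called higher and 1.02% lower. The share called higher among tested collagens was therefore 46.9%. The median log2 ratio was 0.49 over the tested collagens, with 0.44 and 0.51 on the separate arrays, against 0.02 over all tested genes. It lies between Col5a2, whose control signal was not well above background, and Col16a1, and over the 29 collagens above background in both channels it was 0.35. With no filter on dim probes the collagen median was 0.27 over all 43 genes. Positive mean ratios were seen for 25 collagens, 22 of them with an adjusted p under 0.05 in limma, and negative ones for 7, of which 5 had an adjusted p under 0.05 but none reached 1.5-fold. An adjusted p under 0.05 was common on these arrays, held by 54.3% of all tested genes, 30.6% with a positive and 23.7% with a negative mean. The methods' t-test called 11 collagens higher, against 3.6% of all tested genes, and after Benjamini-Hochberg adjustment it called 0 collagens and 0% of all genes. At a 2-fold threshold limma called 5 collagens higher, against 1.17% of all genes.

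**Figure D1:**
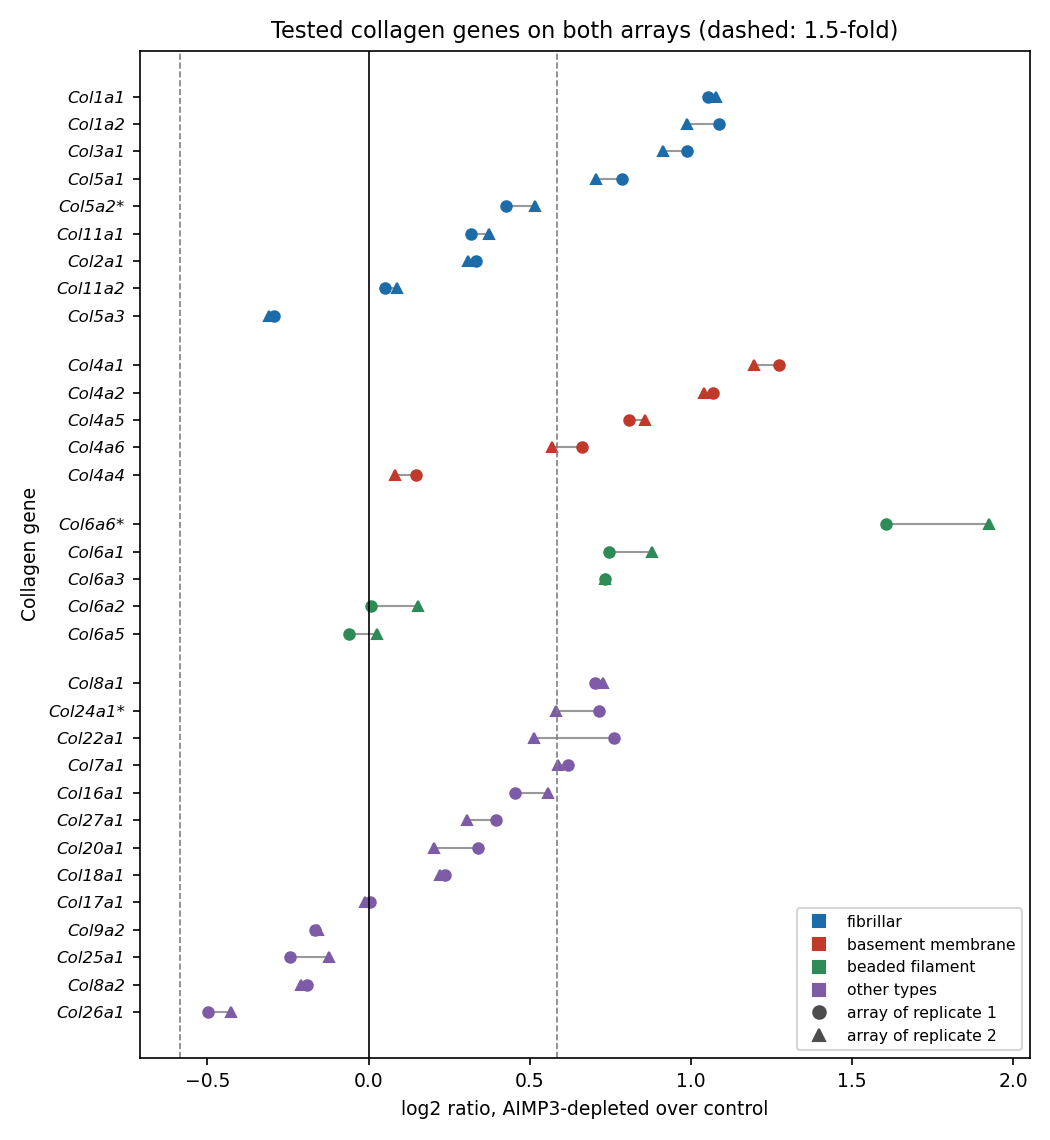
Log2 ratio of AIMP3-depleted over control (x axis) for each tested collagen gene (y axis), with a circle for the array of replicate 1 and a triangle for the array of replicate 2, coloured by class. Asterisks mark the 3 genes whose control signal was not well above background on either array. Of the 15 genes called higher, 12 passed 1.5-fold (dashed line) on both arrays, and no gene passed the line on the lower side.

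By class, 4 of 5 tested basement membrane genes were called higher, as were 3 of 5 beaded filament genes, 4 of 9 fibrillar genes and 4 of 13 genes of other types. The share over all tested genes was 5.52%. With only genes above background in both channels, these counts were 4 of 5, 2 of 4, 4 of 8 and 3 of 12, against 4.80% of all such genes. The methods' t-test left 4 basement membrane and 4 fibrillar calls but 1 beaded filament call and 2 of other types, and without replicate 1 the other types also had 2 and the basement membrane genes 3, as they did over the mean of all probes. The median log2 ratio was 0.83 for basement membrane, 0.73 for beaded filament, 0.47 for fibrillar and 0.27 for other collagens. The fibrillar median is the value of Col5a2, whose control signal was not well above background, and it was 0.55 without that gene. On the array of replicate 1 these medians were 0.81, 0.73, 0.43 and 0.34, and on the array of replicate 2 they were 0.86, 0.73, 0.52 and 0.22. Basement membrane genes had the highest median and other types the lowest on both arrays. The ranges of the classes overlapped, and the order of fibrillar and beaded filament genes turned around when only probes above background in both channels were kept, at 0.55 and 0.41, and with no filter on dim probes, at 0.47 and 0.42, where the median of other types was 0.039. Differences between classes were not tested, since genes are not replicates.

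**Figure D2:**
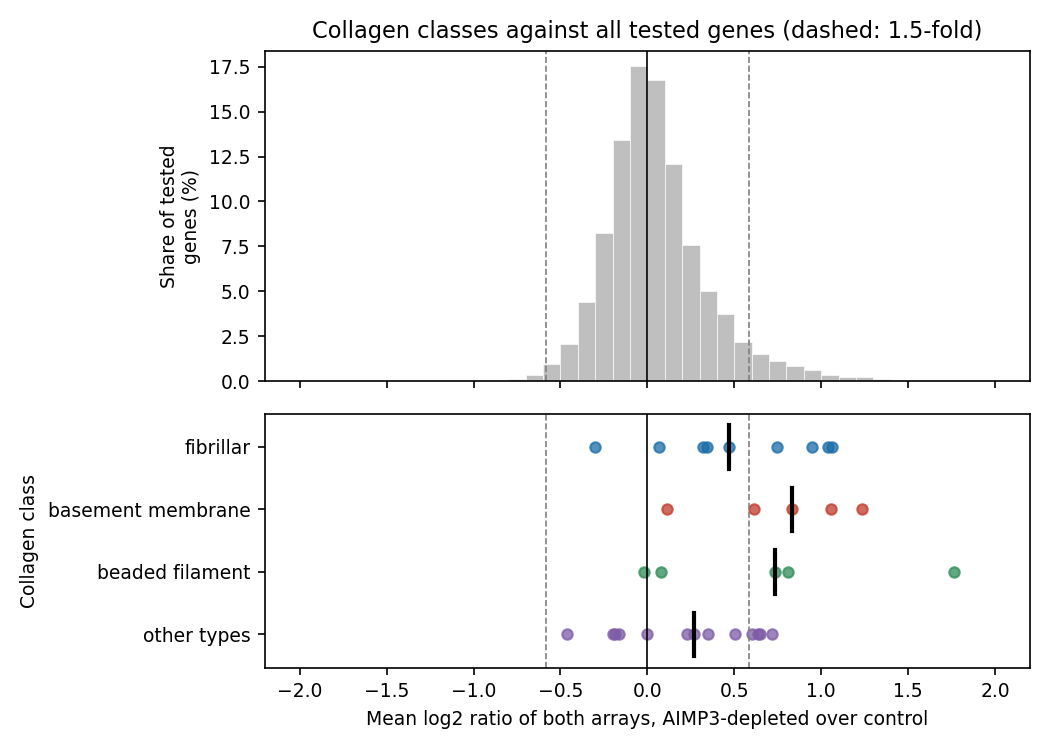
Upper panel, share of all 24022 tested genes (percent) by mean log2 ratio of both arrays, AIMP3-depleted over control. Lower panel, each tested collagen as a point on the same axis by class, with the class median as a black bar at 0.47 (fibrillar), 0.83 (basement membrane), 0.73 (beaded filament) and 0.27 (other types), all to the right of the median of all genes at 0.02.

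Among basement membrane collagens, both chains of the ubiquitous type IV network rose most. Col4a1 had log2 ratios of 1.27 and 1.20, a mean of 1.24 ± 0.056 (SD, n = 2) or 2.35-fold (adjusted p = 3.53e-05, limma). Col4a2, the partner chain of Col4a1 in the type IV trimer, had ratios of 1.07 and 1.04, a mean of 1.05 ± 0.019 or 2.08-fold (adjusted p = 3.69e-05). Both genes were about doubled on each array, and Col4a1 was the higher of the pair on both.

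The chains of more restricted basement membranes moved by less. Col4a5, a chain of the kidney filtration barrier that is mutated in Alport syndrome, had ratios of 0.81 and 0.86, a mean of 0.83 ± 0.035 (adjusted p = 6.15e-05, limma). Col4a6, its partner chain in smooth muscle and some epithelial basement membranes, had ratios of 0.66 and 0.57 at its brighter probe, a mean of 0.62 ± 0.065 (adjusted p = 0.000181), so that replicate 2 lay just under 1.5-fold. The second Col4a6 probe was also above background in both channels and gave 0.13 and -0.11, with a mean of 0.01, and the average of both probes, 0.32, was not past the threshold. The rise of Col4a6 was thus seen with 1 of its 2 probes. Col4a4 had ratios of 0.15 and 0.08, a mean of 0.12 (adjusted p = 0.0735), and Col4a3, its partner in the mature glomerular network, was not well above background.

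In the beaded filament class, Col6a6 was well above background in AIMP3-depleted cells on both arrays and in the control on neither. It was therefore tested only through the channel where it is high, and its size is given as a bound. Its ratios were 1.61 and 1.93. On the mean of both arrays its loess ratio gives a bound of at least 3.40-fold, or 1.77 in log2 units (adjusted p = 4.33e-05, limma). That bound did not hold for replicate 1 alone, at 1.61, and the p-value carries the same limit of 1 channel. The ratio was 1.77 with no background subtraction but 4.76 in the deposited value table, which differs in both background correction and dye normalization. A second probe, for another Col6a6 transcript record, was not well above background in either channel.

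Type VI microfilaments are built mainly from the products of Col6a1, Col6a2 and Col6a3, and these genes did not move together. Col6a1 had ratios of 0.74 and 0.88, a mean of 0.81 ± 0.095 (adjusted p = 9.54e-05, limma), and Col6a3 had 0.73 and 0.73, a mean of 0.73 ± 0.0018 (adjusted p = 8.13e-05). Col6a2 had ratios of 0.01 and 0.15, a mean of 0.08 (adjusted p = 0.234). The lowest Col6a1 value thus lay well above the highest Col6a2 value, on arrays where both genes were above background in both channels. Each gene was read by 1 probe, and the difference between them was not tested. Col6a5 had ratios of -0.06 and 0.03, a mean of -0.02 (adjusted p = 0.781), whose sign differed between arrays and turned positive under 4 other ways of processing the signals, and Col6a4 was not well above background.

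Among fibrillar collagens, the main chains of skin, bone and vessel wall rose and the cartilage chains stayed under the threshold. Col1a1, the major chain of type I collagen, had ratios of 1.05 and 1.08, a mean of 1.06 ± 0.018 or 2.09-fold (adjusted p = 3.66e-05, limma). Col1a2, which completes the type I trimer, had 1.09 and 0.99, a mean of 1.04 ± 0.070 or 2.05-fold (adjusted p = 4.82e-05). The chains of type I collagen overlapped in their values across the arrays. Col3a1, found with type I in elastic tissues, had 0.99 and 0.91, a mean of 0.95 ± 0.053 (adjusted p = 5.08e-05).

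Type V collagen starts and limits the width of type I fibrils, and its chains spread over the widest range of any fibrillar type. Col5a1 had ratios of 0.79 and 0.70, a mean of 0.75 ± 0.058 (adjusted p = 9.31e-05, limma). Col5a2 had 0.43 and 0.52, but its control signal was not well above background on either array, so that it was tested only through the AIMP3-depleted channel. On the mean of both arrays its loess ratio gives a bound of at least 1.39-fold (adjusted p = 0.000453), and it was not called. That bound did not hold under median centring, which gave 0.42 in log2 units, nor for replicate 1 alone, at 0.43. Signals processed by the scanner software gave 1.26 in log2 units, past the threshold, as did the deposited value table. Col5a3, the least common type V chain, had ratios of -0.29 and -0.31, a mean of -0.30 ± 0.011 (adjusted p = 0.00189), the only negative mean in the fibrillar class, and it did not reach 1.5-fold. Col11a1 had a mean of 0.35 (adjusted p = 0.00122) and Col2a1, the collagen of cartilage fibrils, a mean of 0.32 (adjusted p = 0.00148), while Col11a2 had 0.07 (adjusted p = 0.232), with a sign that was negative under 3 other ways of processing the signals.

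The sequences before the annotated starts of Col1a2 and Col3a1 are shown because these genes rose by similar amounts from starts of unlike composition. They are 150 bases upstream of the start in RefSeq, build GRCm38.p6, 5′ to 3′ on the strand of the gene, and capitals mark the CCAAT box (searched as CCAAT), the TATA box (searched as TATAAA) and the GC box (searched as GGGCGG) on either strand. Col1a2 lies on the plus strand (chr6:4505468-4505617) and Col3a1 on the plus strand (chr1:45311388-45311537).
Col1a2: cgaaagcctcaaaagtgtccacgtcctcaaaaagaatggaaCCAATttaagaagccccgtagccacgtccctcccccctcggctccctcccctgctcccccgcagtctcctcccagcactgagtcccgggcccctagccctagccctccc
Col3a1: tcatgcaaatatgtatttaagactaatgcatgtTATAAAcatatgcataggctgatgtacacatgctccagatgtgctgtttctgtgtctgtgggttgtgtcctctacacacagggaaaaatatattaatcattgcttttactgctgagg
The Col1a2 stretch holds 1 CCAAT match, and the Col3a1 stretch holds 1 TATAAA match. In the 250 bases before the start, the GC content was 62% for Col1a2 and 35.2% for Col3a1.

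Promoter entries were matched for 35 of the 43 collagen genes, as 38 windows of 250 bases upstream of a start. CCAAT occurred in 34.2% of these windows against 33.8% of all 32851 windows, and TATAAA in 13.2% against 12.4%. GGGCGG, the letters of a GC box, occurred in 57.9% against 32.7%. Among windows of collagens called higher, 8 of 13 held GGGCGG, and among windows of tested collagens not called, 12 of 16 did. Among windows of untested collagens 2 of 9 did, or 22.2%. A match is a description, not a bound site.

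Of the 22 genes of other types, 13 were tested and 4 were called higher, each from a different structural group. Col8a1, a short-chain network collagen of vessel walls and the cornea, had ratios of 0.70 and 0.73, a mean of 0.71 ± 0.018 (adjusted p = 8.93e-05, limma). Col22a1, a fibril-associated collagen of tissue junctions, had 0.76 and 0.51, a mean of 0.64 ± 0.176 (adjusted p = 0.000522). Col7a1, which forms the anchoring fibrils under skin epithelium, had 0.62 and 0.59, a mean of 0.60 ± 0.020 (adjusted p = 0.000151). Col8a1 and Col7a1 passed 1.5-fold on both arrays, and Col22a1 on that of replicate 1 alone. Col7a1 lay close to the threshold, at 0.57 with processed signals, where it was not called.

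Col24a1, which resembles fibrillar collagens in sequence, had ratios of 0.71 and 0.58, with a control signal that was not well above background on either array. It too was tested only through the AIMP3-depleted channel, and on the mean of both arrays its loess ratio gives a bound of at least 1.57-fold (adjusted p = 0.000194, limma). That bound did not hold under median centring, which gave 0.56 in log2 units, short of the threshold, nor for replicate 2 alone, at 0.58. The deposited value table gave 2.93 in log2 units. Col27a1, the other collagen of this kind, had a mean of 0.35 (adjusted p = 0.00141). Neither Col22a1 nor Col24a1 had a second probe.

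The other 9 tested genes of these types ranged from 0.51 down to -0.46 and were not called. Col16a1, a fibril-associated collagen, had a mean of 0.51 (adjusted p = 0.000384) with 0.54 at its second tested probe. Col18a1, the basement membrane collagen that gives rise to endostatin, had a mean of 0.23 (adjusted p = 0.00548) with 0.22 at its second tested probe. Both genes thus gave like values at separate probes, but centring the arrays on their medians in place of loess moved Col16a1 to 0.70 and Col18a1 to 0.65, past the threshold. Col20a1 had a mean of 0.27 (adjusted p = 0.00548) but 0.04 at its second tested probe, where the arrays differed in sign.

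Negative means in this class were seen for Col26a1, Col8a2, Col25a1, Col9a2 and Col17a1. Col26a1 had the lowest value of all collagens, with ratios of -0.50 and -0.43, a mean of -0.46 ± 0.051 (adjusted p = 0.000447, limma). Col8a2 had ratios of -0.19 and -0.21, a mean of -0.20 ± 0.014 (adjusted p = 0.00955). The type VIII chains, Col8a1 and Col8a2, therefore had opposite signs on both arrays, although only Col8a1 passed the threshold. Col25a1, a neuronal transmembrane collagen, had a mean of -0.18 (adjusted p = 0.0216) and Col9a2, a cartilage chain, -0.16 (adjusted p = 0.0212), which became 0.05 when the arrays were centred on their medians instead of loess-normalized. Col17a1, a hemidesmosome collagen, had a mean of -0.0030 (adjusted p = 0.959), with a sign that changed between arrays and with the processing.

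The upstream stretches of the type VIII genes are shown because these chains differed in sign. They are drawn from RefSeq in the same way, with Col8a1 on the minus strand (chr16:57754738-57754887) and Col8a2 on the plus strand (chr4:126286644-126286793), and capitals again mark these boxes on either strand.
Col8a1: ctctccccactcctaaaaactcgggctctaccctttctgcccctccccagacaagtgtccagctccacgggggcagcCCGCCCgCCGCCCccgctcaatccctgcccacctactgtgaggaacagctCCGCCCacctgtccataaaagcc
Col8a2: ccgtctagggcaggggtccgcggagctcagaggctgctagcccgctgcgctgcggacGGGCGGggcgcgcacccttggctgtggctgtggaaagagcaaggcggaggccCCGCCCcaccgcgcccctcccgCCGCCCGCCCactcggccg
GGGCGG or its complement occurred 3 times in the Col8a1 stretch and 4 times in the Col8a2 stretch, counting overlapping matches, and neither held CCAAT or TATAAA.

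**Figure D3:**
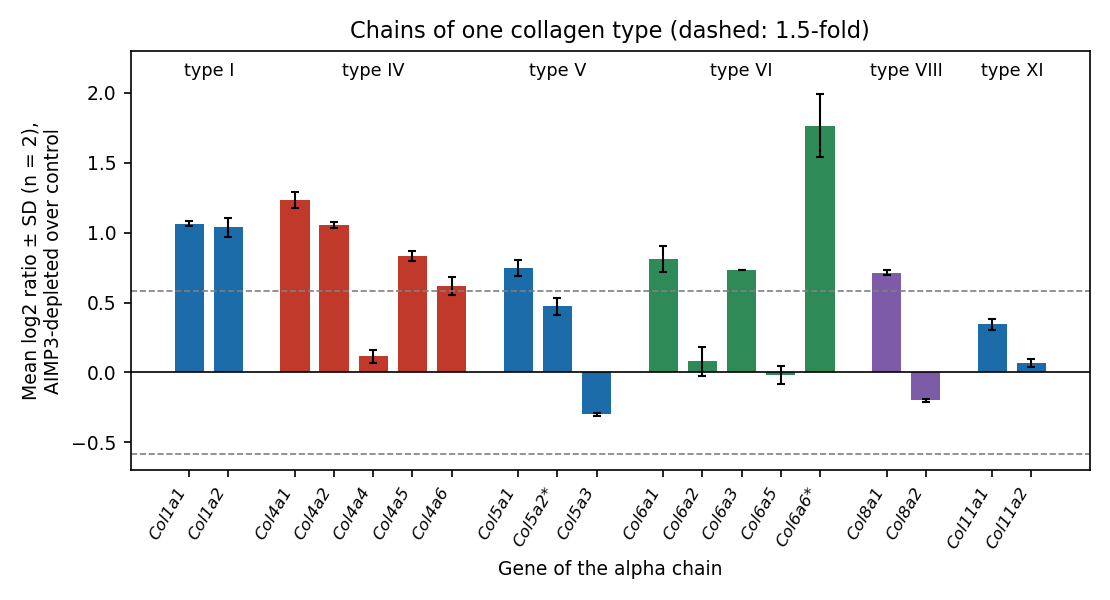
Mean log2 ratio, AIMP3-depleted over control, with SD over 2 arrays (y axis), for genes encoding the chains of a collagen type that has several tested genes (x axis). Bars start at 0 and asterisks mark control signals not well above background. Col1a1 and Col1a2 reached 1.06 and 1.04, while the type V bars ran from 0.75 to -0.30 and Col6a2 stood at 0.08 between Col6a1 at 0.81 and Col6a3 at 0.73.

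Several collagen genes are neighbours in the mouse genome, some of them arranged head to head around a shared start region. Col4a1 and Col4a2 had means of 1.24 and 1.05, and Col4a5 and Col4a6 had 0.83 and 0.62, the latter from its brighter probe alone, since the average of both Col4a6 probes was 0.32. The neighbours Col6a1 and Col6a2 had 0.81 and 0.08. Col5a2, next to Col3a1, and Col6a6, next to Col6a5, have only the bounds given above and are not set against their neighbours here. These values are a description of pairs and were not tested.

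The 11 collagens that were not tested were Col4a3, Col6a4, Col9a1, Col9a3, Col10a1, Col13a1, Col14a1, Col15a1, Col19a1, Col23a1 and Col28a1. For 9 of them no probe was well above background in any channel, and for Col9a1 and Col23a1 1 probe was so in the control channel of 1 array only. They include Col10a1, a marker of hypertrophic cartilage, and the type IX chains Col9a1 and Col9a3. Leaving out Col6a6, Col5a2 and Col24a1, which were tested through the AIMP3-depleted channel alone, 13 of 29 collagens were called higher, against 4.80% of the 22565 genes above background in both channels.

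Genes that make collagen were followed with a list of 36 enzymes, chaperones and export factors, of which 34 were tested. Of these, 9 were called higher, or 26.5% against 5.52% of all tested genes, and 0 lower, and the median log2 ratio was 0.25, which became 0.47 with median centring and 0.17 over the mean of all probes, with 8 to 12 genes called when the processing, probe rule or replicates were changed. The cross-linking enzymes of the lysyl oxidase family were the most frequent among them. Lox had ratios of 0.93 and 1.17, a mean of 1.05 ± 0.170 (adjusted p = 8.93e-05, limma), and Loxl1, Loxl4 and Loxl2 had means of 0.82, 0.72 and 0.69. Loxl3 had 0.25 (adjusted p = 0.0653), with 0.04 for replicate 1 and 0.45 for replicate 2.

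Bmp1, the protease that removes the C-terminal propeptide of fibrillar procollagens, had ratios of 1.02 and 0.92, a mean of 0.97 ± 0.074 (adjusted p = 5.25e-05, limma). Serpinh1, the collagen chaperone HSP47, had 0.69 and 0.69, a mean of 0.69 ± 0.0057 (adjusted p = 9.60e-05). P4ha2, a catalytic subunit of prolyl 4-hydroxylase, and Fkbp10, a chaperone needed for lysine hydroxylation, both had means of 0.64, and P3h4, a partner of lysyl hydroxylase, had 0.62. Called genes were found among those of hydroxylation, folding, trimming and cross-linking, but other genes of each step were not called. Besides Loxl3, these were for example P3h1 at 0.13 and Plod3 at 0.40 for hydroxylation, Ppib at -0.12 for folding and Adamts2 at 0.13 for trimming. The other 25 tested genes were not called, P4ha1 with a mean of -0.07 among them, and the lowest was Tmem38b, an endoplasmic reticulum cation channel, at -0.35.

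Of 10 collagen receptors, 7 were tested and 2 were called higher, against 5.52% of all tested genes, and 1 was called with processed signals or over the mean of all probes. The median was 0.26, or 0.49 with median centring and 0.070 with no filter on dim probes. Ddr2, a receptor kinase for fibrillar collagen, had ratios of 0.94 and 0.84, a mean of 0.89 ± 0.069 (adjusted p = 6.15e-05, limma). Itgb1, the shared beta subunit of collagen-binding integrins, had 0.63 and 0.63, a mean of 0.63 ± 0.0030 (adjusted p = 0.000129), and the lowest value was -0.08 for Itga1. Of 10 genes of collagen breakdown, 7 were tested and limma called 0 in either direction, and 6 had an adjusted p under 0.05, as did 54.3% of all tested genes. Median centring called 2 higher, and processed signals, the deposited value table and the array of replicate 1 alone called 1 each. The median was 0.19, the value of Mmp13, which was not above background in both channels on both arrays, and it was 0.40 in the deposited value table. The genes ranged from 0.54 for Ctsk, a collagen-degrading cathepsin, to -0.27 for Prodh, which degrades proline.

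**Figure D4:**
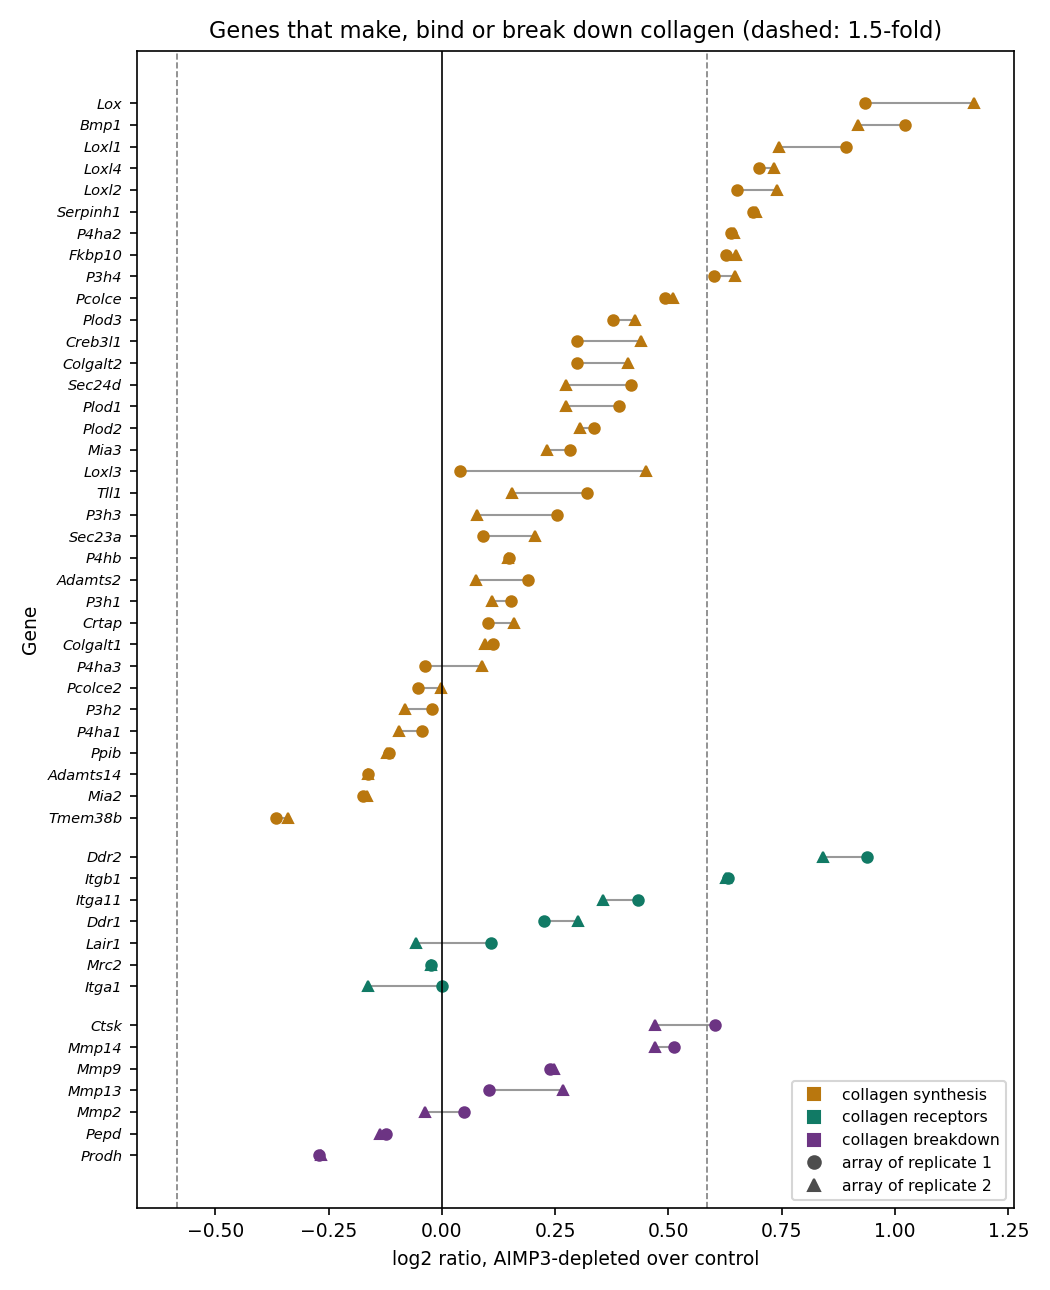
Log2 ratio of AIMP3-depleted over control (x axis) on the array of replicate 1 (circles) and replicate 2 (triangles) for the tested genes of collagen synthesis, collagen receptors and collagen breakdown (y axis). Dashed lines mark 1.5-fold. Of the synthesis genes 9 of 34 were called higher and of the receptors 2 of 7, while no breakdown gene was called.

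Markers of the labelled cell type and of other collagen-producing cells were measured on the same arrays. All 12 mESC markers were above background, with 7 negative and 5 positive means on both arrays and a median of -0.22. Tdgf1 and Fgf4 were called lower at -0.59 and -0.87, against 0.791% of all tested genes called lower. Sox2, Pou5f1 and Nanog had means of -0.53, -0.48 and -0.38 and were not called. Dppa5a and Tbx3 had the highest means, 0.50 and 0.49, and were not called, while median centring called 2 genes of this list higher. An adjusted p under 0.05 in limma was held by 10 of the 12, and by 54.3% of all tested genes. The median of this list became 0.07 when arrays were centred on their medians, and its summed signal was 366617 and 363748 in the control and 376895 and 364620 in the AIMP3-depleted channels, which overlap. Among primitive and parietal endoderm markers 12 of 14 were called higher, against 5.52% of all tested genes, with a median of 1.01. Sox17 had the highest mean at 1.44, followed by Foxa2 at 1.38, the matrix protein gene Sparc at 1.24 and Gata6 at 1.20. The others called were Sox7, Thbd, Lama1, Cubn, Dab2, Gata4, Pth1r and Lamb1, between 1.11 and 0.68. The summed signal of this list was 191679 and 197922 in the control channels and 395261 and 393956 in the AIMP3-depleted channels, in normalized intensity units.

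Of 15 fibroblast markers 14 were tested and 8 were called higher, against 5.52% of all tested genes, with a median of 0.68. They were S100a4 at 1.40, Fbln2 at 1.07, Pdgfra at 0.97, Cd248 at 0.86, Twist2 at 0.82, Postn at 0.77, Prrx1 at 0.75 and Pdgfrb at 0.62, while Lum was not well above background. The other 6 tested ranged from 0.49 for Dcn to -0.16 for Fbln1, the only negative mean of the list, with Thy1 at 0.17 and Mfap5 at 0.18. Their summed signal was 23052 and 22830 in the control and 37473 and 39085 in the AIMP3-depleted channels. Of 6 smooth muscle markers 4 were tested and 2 were called higher, against 5.52% of all tested genes, Tagln at 1.47 and Acta2 at 1.33. Cnn1 at 0.44 and Des at -0.02 were not called, and Myh11 and Lmod1 were not well above background. The smooth muscle median was 0.88, or 0.26 with no filter on dim probes. The summed signal of this list was 27873 and 28375 in the control and 67014 and 76374 in the AIMP3-depleted channels. Of 7 chondrocyte markers 5 were tested and Matn1 alone was called, at 0.69, with a list median of -0.17, while 2 were called with processed signals or the deposited value table, and the summed signal was between 1465 and 1572 in all channels. Of 7 endothelial markers 5 were tested and limma called 0, while 4 had an adjusted p under 0.05, as did 54.3% of all tested genes. The endothelial median was 0.31, which is the value of Cdh5, a gene not above background in both channels on both arrays, and it was 0.15 with the stricter filter and -0.055 with no filter. The summed signal was 6643 and 6977 in the control and 6411 and 6501 in the AIMP3-depleted channels.

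The summed signal of the 32 tested collagens was 93908 and 94291 in the control and 140347 and 138497 in the AIMP3-depleted channels. The part of these marker lists, or of feeder cells, in the collagen ratios was not tested. In bulk RNA, a change in the number of cells of a type and a change in RNA per cell cannot be told apart.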

How the data were processed

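RNA of 2 AIMP3-depleted replicates (Cy5) was compared with 1 control pool (Cy3) on 2 two-colour Agilent arrays of 1 slide. The scanner files, which the authors deposited as made by Feature Extraction (version 11.5.1.1 per the file headers, while the methods name an older one), hold intensity values of each spot and its local background, not normalized between dyes. They also hold signals of each channel as processed by the scanner software. The scanner software's log10 ratios, deposited in the same files, were not used here. A separate value table that the authors deposited gives log2 ratios, made with GeneSpring. Its values equalled the log2 ratio of processed signals shifted by 0.0404 and 0.0395 for over 99.7% of 55681 probes (within 0.01), so that scale and direction are those of AIMP3-depleted over control. The median of the table was 0.091 and 0.111 on the arrays, and its centring is not stated.

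Median signals were corrected with normexp (offset 50) and loess-normalized within each array in limma 3.58.1 (R 4.3.3). Control spots had weight 0 in loess, and 215 and 227 spots with outlier flags were left out. The offset draws ratios of dim probes towards 0. Replicate spots were averaged by probe. A probe was tested where either channel was well above background on each array, which kept 33012 of 55681 probes and left out 22669. The brightest tested probe stood for a gene. Symbols came from RefSeq accessions (GRCm38.p6), which named 14972 of 24022 tested genes, and an unmatched accession was kept as its own feature. The mean ratio was tested against 0 with lmFit and eBayes (residual df 1), on which the number of arrays sets the precision. Fold bounds used the dim channel's own signal, or the lowest well-above-background signal where that was higher. The steps were tested on simulated data.

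All 43 collagens are accounted for, with values for those called and the highest and lowest of each class. The members and lists were chosen with earlier results of these data known. Alternatives changed the background correction, dye normalization, value source, probe filter, probe rule, replicates, test, fold threshold and class definition.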

Additional observations from a re-analysis of the deposited data

How the results depend on the processing

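No collagen was called lower under any alternative, and between 12 and 16 were called higher, apart from the t-test and the 2-fold threshold. The 1-sample t-test called 11 before and 0 after Benjamini-Hochberg adjustment, and the 2-fold threshold called 5. Leaving aside the t-test and the 2-fold threshold, the share of all genes called higher ran from 3.63% with no filter to 11.8% with median centring. The count was 12 without replicate 1, when Col4a6, Col24a1 and Col22a1 fell under 1.5-fold, and 15 without replicate 2. Of the 15 calls, 12 held under no background subtraction, processed signals, median centring, the deposited table and the mean of all probes alike. Col4a6, Col24a1 and Col7a1 did not, and Col5a2, Col16a1 and Col18a1 were called under at least 1 of these 5. Col22a1, among the 12, was lost without replicate 1. Among all genes, 87.5% of calls were higher, against 71.5% with processed signals, 97.7% with median centring, which moved the median of all genes to 0.18, and 77.5% with the deposited table.

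The median over collagens was 0.61 with median centring, 0.58 with the table, 0.27 with no filter, 0.35 with the stricter filter and 0.41 over the mean of all probes. The fibrillar median was 0.70 with processed signals, 0.54 with median centring, 0.74 with the table and 0.55 with the stricter filter. The basement membrane median was 0.87 with no background subtraction, 0.92 with processed signals, 1.00 with median centring, 0.96 with the table and 0.72 with no filter. The beaded filament median was 0.72, 0.81, 0.89, 0.85 and 0.42 under those alternatives in turn, and 0.41 with the stricter filter. The median of other types was 0.42 with median centring and 0.039 with no filter.

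Col6a5 turned to 0.030 with no background subtraction, 0.0032 with processed signals, 0.095 with median centring and 0.043 with the table, and lay between -0.061 and 0.027 on single arrays. Col11a2 turned to -0.011, -0.051 and -0.011 with no background subtraction, processed signals and the table. Col17a1 turned to 0.035 with median centring and 0.0092 with the table, and lay between -0.011 and 0.0046 on single arrays. Col9a2 turned to 0.055 with median centring.

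Alternatives for the gene lists were chosen after seeing the data. Called receptors numbered 1 with processed signals and 1 over the mean of all probes. Called breakdown genes numbered 1 with processed signals, 2 with median centring, 1 with the table and between 0 and 1 on single arrays. The mESC marker median turned to 0.070 with median centring, and the endothelial median to -0.055 with no filter. The cause of these shifts was not tested.

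No paired analysis was possible because the replicate numbers belong to 1 group and both arrays share 1 control pool. Probes near background limit the values of Col6a6, Col5a2 and Col24a1.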
